A study of Mus musculus with 18 samples.

Results

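The 10 genes described here encode parts of the T cell receptor machinery and genes that act beside it, namely Zap70, Cd4, Themis, Lag3, Cd3e, Cd3g, Cd8a, Lck, Batf and Rasgrp1. They were taken by symbol from a table of raw read counts of 55487 mouse genes, and all 10 were found in it. They were chosen by their fold changes between these same groups of livers, which were known when the list was drawn up, so the differences between the groups are given as a description. The question was whether Zap70, Cd4, Themis and Lag3 followed other T cell genes such as Cd3e, Cd8a and Lck from liver to liver.

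RNA was sequenced from whole livers of 18 male C57BL/6J mice, 1 library per mouse. All mice had received an adeno-associated virus 1 week before the diets began, with a transgene under the hepatocyte promoter TBG. CON-GFP mice (n = 6) carried GFP and ate a purified control diet. FPC-GFP mice (n = 6) carried GFP and ate the FPC diet, which is rich in fructose, palmitate and cholesterol and came with sugared drinking water. FPC-LIPA mice (n = 6) carried human LIPA, the gene of lysosomal acid lipase, and ate the FPC diet. Both diets were given for 16 weeks, and no liver of mice that carried LIPA on the control diet was analysed here. The human transgene is not in the mouse table, and mouse Lipa does not check it: its level was 247 ± 33.7 CPM (SD; a gene's counts scaled to a common library size) in CON-GFP, 340 ± 61.4 in FPC-GFP and 293 ± 51.2 in FPC-LIPA livers.

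Libraries held 16632146 to 37739301 counts. Albumin lay between 31419 and 72020 CPM in all livers. Ribosomal protein genes took 1.42% to 2.49% of the counts in CON-GFP and FPC-GFP livers and 2.12% to 7.95% in FPC-LIPA livers, with 6.32%, 7.95% and 7.81% in the livers of mice 36, 39 and 37. Genes with exons of under 1.5 kb in all had a median log2 fold change of 0.61 in FPC-LIPA against FPC-GFP, and those of over 6 kb a median of -0.12. The part of these 3 libraries and of gene length in the results below was not tested, but values without them are given.

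A T cell senses a peptide on an MHC molecule through its receptor, whose chains signal through the CD3 proteins. The coreceptors CD4 and CD8 bind the MHC molecule and bring the kinase LCK to the receptor, LCK phosphorylates the CD3 tails, and the kinase ZAP70 docks there and passes the signal on. THEMIS is a regulator of this signal, best known from developing thymocytes, and RASGRP1 links it to RAS. LAG3 is an inhibitory receptor that resembles CD4 and binds MHC class II, and BATF is a transcription factor of activated lymphocytes. In liver, T cells are a minority beside hepatocytes, Kupffer cells and endothelium. CD4 also occurs on some dendritic cells and macrophages, and LAG3 and ZAP70 are also found in natural killer cells.

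Promoter sequences are shown for 4 of the genes. Of these, 2 are genes that the question was about (Zap70 and Themis) and 2 are T cell genes they were compared with (Cd3e and Lck). The windows are the 250 bases before a RefSeq start site on GRCm38.p6, read 5′ to 3′ on the strand of the gene, and they lie at chr1:36761548-36761797 (plus strand) for Zap70, chr10:28668110-28668359 (plus) for Themis, chr9:45009612-45009861 (minus) for Cd3e and chr4:129573642-129573891 (minus) for Lck. Capitals mark GGAAGT, a core of ETS factor sites, on either strand.
Zap70: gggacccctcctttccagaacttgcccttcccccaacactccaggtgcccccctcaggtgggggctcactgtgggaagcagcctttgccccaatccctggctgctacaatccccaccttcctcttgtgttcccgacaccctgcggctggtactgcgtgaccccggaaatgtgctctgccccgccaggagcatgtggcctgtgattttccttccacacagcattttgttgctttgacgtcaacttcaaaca
Themis: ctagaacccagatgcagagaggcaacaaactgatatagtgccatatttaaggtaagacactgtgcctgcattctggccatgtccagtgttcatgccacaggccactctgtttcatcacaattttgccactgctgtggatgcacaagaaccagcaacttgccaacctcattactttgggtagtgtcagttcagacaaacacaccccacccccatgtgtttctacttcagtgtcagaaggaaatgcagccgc
Cd3e: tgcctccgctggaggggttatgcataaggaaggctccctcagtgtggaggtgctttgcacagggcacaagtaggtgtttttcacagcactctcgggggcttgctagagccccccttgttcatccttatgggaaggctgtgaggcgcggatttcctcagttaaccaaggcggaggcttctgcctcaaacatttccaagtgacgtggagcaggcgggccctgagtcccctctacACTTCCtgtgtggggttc
Lck: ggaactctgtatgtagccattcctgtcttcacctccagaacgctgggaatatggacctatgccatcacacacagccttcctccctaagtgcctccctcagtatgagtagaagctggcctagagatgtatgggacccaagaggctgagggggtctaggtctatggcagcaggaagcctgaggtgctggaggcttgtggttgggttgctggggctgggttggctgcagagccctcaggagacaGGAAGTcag
RefSeq windows were found for 8 of the 10 genes, 12 windows in all, and Cd4 and Lag3 had none in the table. The letters GGAAGT, the GATA motif AGATAA and the STAT palindrome TTCNNNGAA were searched on both strands, with no overlap between their matches in the windows shown. GGAAGT was in 19.7% of 32851 mouse promoter windows of this length, AGATAA in 9.99% and TTCNNNGAA in 7.02%. The Cd3e window and the Lck window each held 1 GGAAGT, and the Zap70 and Themis windows shown held none of the 3 motifs. Of the other 2 Zap70 windows in the table, the one at chr1:36764265-36764514 also held 1 GGAAGT, so the windows shown do not separate Zap70 from Cd3e and Lck. A match or its absence describes these letters only.

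Zap70, the kinase that docks on the phosphorylated receptor, was the member with the clearest separation of the groups. In CON-GFP livers its level was 12.8 CPM at the lowest, 14.6 at the median and 15.0 at the highest. In FPC-GFP livers the lowest, median and highest values were 0.644, 1.67 and 2.93 CPM. Every FPC-GFP liver was below every CON-GFP liver, and the CON-GFP livers lay close together (14.4 ± 0.774 CPM, SD, n = 6). In FPC-LIPA livers the values ran from 1.08 to 5.83 CPM with a median of 1.78, and these too were all below the CON-GFP livers. The log2 fold change was -3.13 ± 0.29 (SE) in FPC-GFP against CON-GFP, 0.62 ± 0.45 in FPC-LIPA against FPC-GFP and -2.53 ± 0.34 in FPC-LIPA against CON-GFP. A gene was called where the adjusted p of edgeR's quasi-likelihood test was under 0.05 and the fold change at least 2. Zap70 was called lower in both comparisons with CON-GFP and not called between the FPC-fed groups. The difference from CON-GFP was of similar size without the livers of mice 36, 37 and 39 (-3.05).

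Among the 9 members that passed the filter on low counts, 2 were called higher and 3 lower in FPC-GFP against CON-GFP, where 7.2% of 14307 genes were called (4.76% higher and 2.44% lower). In FPC-LIPA against FPC-GFP 3 were called, all higher, where 11.4% of 14620 genes were called (10.3% higher and 1.11% lower). In FPC-LIPA against CON-GFP 3 were called higher and 2 lower, where 15.1% of 14433 genes were called (11.8% higher and 3.25% lower). Groups that did not overlap were found for 2 members on the diet, Zap70 and Lag3, both lower, as for 4.82% of all tested genes. FPC-LIPA and CON-GFP livers did not overlap for Batf and Rasgrp1, both higher (5.58% of tested genes), and for Zap70, lower (5.56%). The members were chosen with these results known, so nothing is read from these shares. The 3 comparisons share their livers pair by pair and are not independent of each other. Cd8a did not pass the filter in any of them. In bulk liver RNA, fewer cells of a type and less RNA per cell cannot be told apart.

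**Figure D1:**
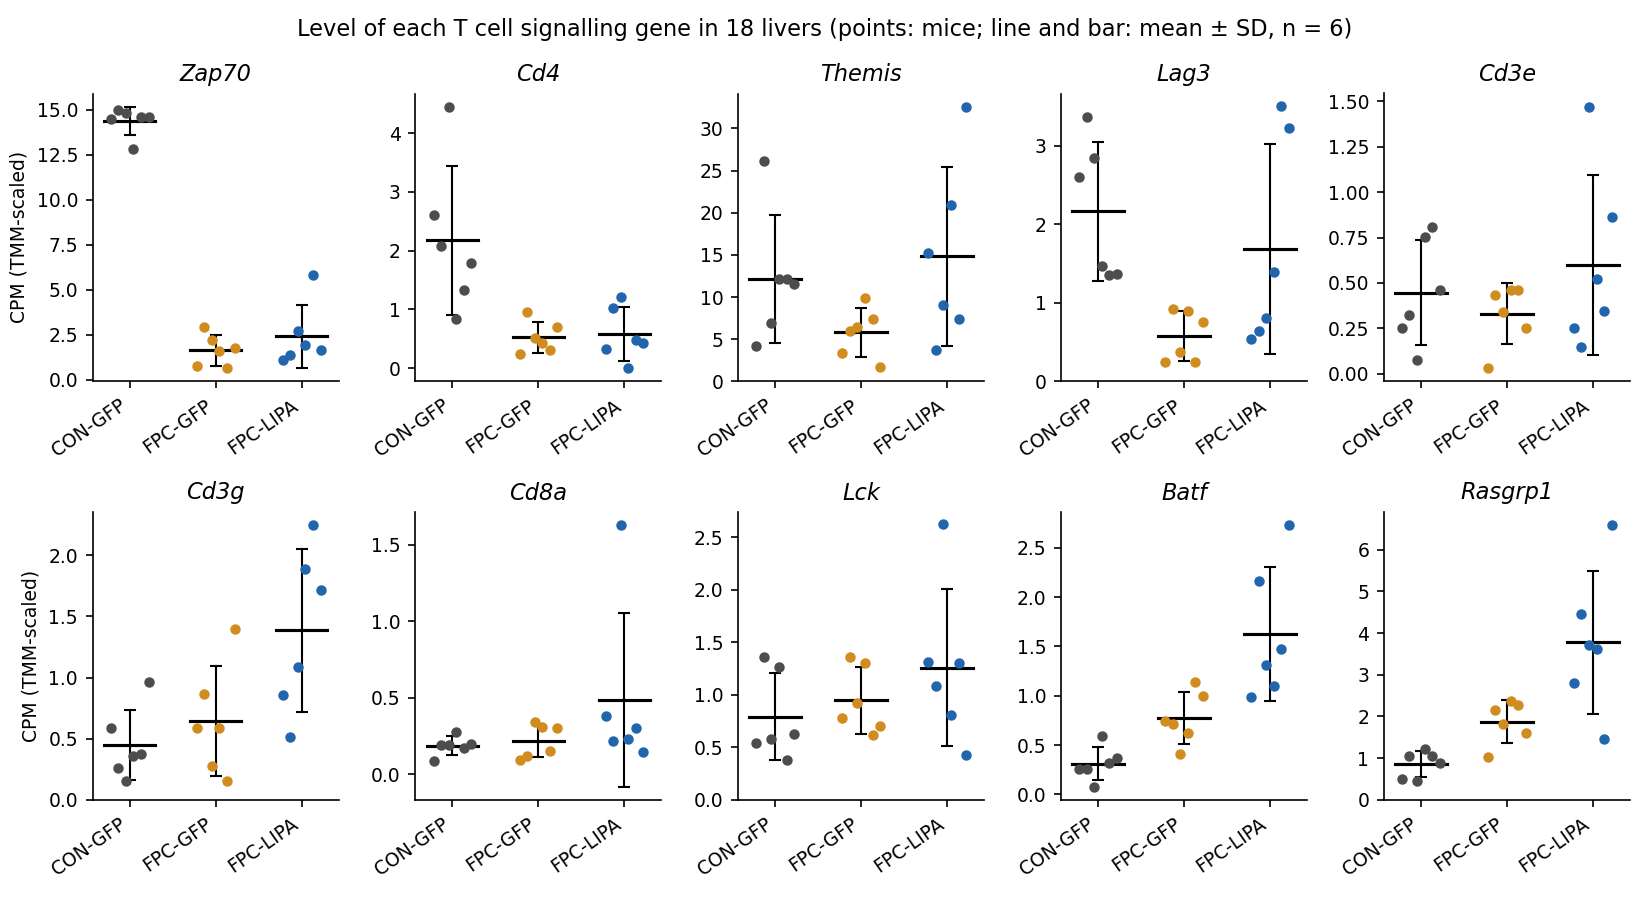
Level of each of the 10 genes (y axis, CPM scaled by TMM, a separate scale per gene) in the 18 livers by group (x axis). Points are mice, lines and bars the mean ± SD of 6 mice; Zap70 in CON-GFP livers (12.8 to 15.0 CPM) lies above all FPC-fed livers, while Cd3e, Cd8a and Lck overlap between all groups.

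Cd4, the coreceptor for MHC class II, was also lower in the FPC-fed groups. Its lowest, median and highest values were 0.833, 1.93 and 4.45 CPM in CON-GFP livers and 0.249, 0.474 and 0.956 CPM in FPC-GFP livers. The groups overlapped only through the CON-GFP liver of mouse 6 at 0.833 CPM and the FPC-GFP liver of mouse 12 at 0.956 CPM. In FPC-LIPA livers it ran from 0 to 1.22 CPM with a median of 0.453. The liver of mouse 36 had 0 counts of Cd4, which allows a level of up to 0.087 CPM (3 counts, counting error only). The log2 fold change was -2.04 ± 0.41 against CON-GFP in FPC-GFP and -1.85 ± 0.62 in FPC-LIPA, called lower in both, and 0.20 ± 0.63 between the FPC-fed groups, not called. The call in FPC-LIPA against CON-GFP was lost without any of CON-GFP 1, 2, 3, 7 or 8 or FPC-LIPA 31, 37 or 39, where the values ran from -1.97 to -1.52.

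Lag3, the inhibitory receptor next to Cd4 on chromosome 6, fell on the diet as well. Its lowest, median and highest values were 1.35, 2.03 and 3.37 CPM in CON-GFP livers and 0.246, 0.564 and 0.925 CPM in FPC-GFP livers, with no overlap. In FPC-LIPA livers they were 0.542, 1.10 and 3.50 CPM, so that this group ran from the FPC-GFP range to just above the highest CON-GFP liver. The livers of mice 36, 39 and 37 had 1.39, 3.50 and 3.23 CPM, and its other livers were at 0.801 CPM or below. The log2 fold change was -1.90 ± 0.39 in FPC-GFP against CON-GFP, called lower. It was 1.61 ± 0.56 in FPC-LIPA against FPC-GFP and -0.34 ± 0.49 in FPC-LIPA against CON-GFP, neither called. Without mice 36, 37 and 39 these values were 0.22 and -1.67, and the latter was then called. Without FPC-LIPA 31, 33 or 34 the difference between the FPC-fed groups was 1.80, 1.79 and 1.75 and was called.

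Themis, the regulator of receptor signalling, varied more between mice of a group than Zap70 did. Its lowest, median and highest values were 4.24, 11.8 and 26.1 CPM in CON-GFP livers, 1.70, 6.24 and 9.94 CPM in FPC-GFP and 3.68, 12.2 and 32.6 CPM in FPC-LIPA livers. All groups overlapped. The log2 fold change was -1.06 ± 0.41 in FPC-GFP against CON-GFP, not called, and -1.24 and called without CON-GFP 1, or -1.27 and called without FPC-GFP 16. It was 1.43 ± 0.49 in FPC-LIPA against FPC-GFP, called higher, and 0.32 ± 0.49 in FPC-LIPA against CON-GFP, not called. In FPC-LIPA against FPC-GFP, Themis lay just inside the threshold (adjusted p = 0.0484, edgeR) and Lag3 just outside it (adjusted p = 0.0517, edgeR).

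The CD3 chains, which carry the receptor's signalling tails, were low in all livers. Cd3e had a lowest, median and highest value of 0.0767, 0.394 and 0.807 CPM in CON-GFP livers, 0.0311, 0.388 and 0.464 CPM in FPC-GFP and 0.147, 0.434 and 1.47 CPM in FPC-LIPA livers. The groups overlapped and their medians were close to each other. Its log2 fold change was -0.45 ± 0.52 in FPC-GFP against CON-GFP, 0.88 ± 0.59 in FPC-LIPA against FPC-GFP and 0.41 ± 0.59 in FPC-LIPA against CON-GFP, none called. Cd3g had 0.153, 0.366 and 0.961 CPM in CON-GFP livers, 0.153, 0.590 and 1.40 CPM in FPC-GFP and 0.515, 1.41 and 2.25 CPM in FPC-LIPA livers. Here the highest FPC-LIPA livers, those of mice 36, 37 and 39, stood above all others. The log2 fold change of Cd3g was 0.47 ± 0.50 in FPC-GFP against CON-GFP and 1.17 ± 0.50 in FPC-LIPA against FPC-GFP, neither called, and 1.62 ± 0.46 in FPC-LIPA against CON-GFP, called higher. The latter was 1.43 and not called without FPC-LIPA 39, and 0.85 and not called without mice 36, 37 and 39. Between the FPC-fed groups Cd3g was called without FPC-LIPA 33, at 1.36.

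Cd8a, the coreceptor for MHC class I, and Lck, the kinase that both coreceptors carry, showed no called difference. Cd8a lay between 0.0839 and 0.278 CPM in CON-GFP livers, between 0.0934 and 0.343 CPM in FPC-GFP and between 0.144 and 1.63 CPM in FPC-LIPA livers. The top value belonged to mouse 34, and the next FPC-LIPA liver had 0.383 CPM. Without a filter on low counts the log2 fold change of Cd8a was 0.23 in FPC-GFP against CON-GFP, 1.15 in FPC-LIPA against FPC-GFP and 1.37 in FPC-LIPA against CON-GFP, none called. Lck had a lowest, median and highest value of 0.375, 0.602 and 1.36 CPM in CON-GFP livers, 0.614, 0.853 and 1.36 CPM in FPC-GFP and 0.431, 1.19 and 2.63 CPM in FPC-LIPA livers. The liver of mouse 34 was again the highest. The log2 fold change of Lck was 0.30 ± 0.34, 0.46 ± 0.37 and 0.73 ± 0.43 in the same order of comparisons.

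Batf and Rasgrp1 went the other way from Zap70, with the lowest values on the control diet and the highest in FPC-LIPA livers. Batf had a lowest, median and highest value of 0.0767, 0.288 and 0.595 CPM in CON-GFP livers, 0.412, 0.728 and 1.14 CPM in FPC-GFP and 0.988, 1.39 and 2.73 CPM in FPC-LIPA livers. FPC-LIPA livers were all above CON-GFP livers, and neighbouring groups overlapped. Its log2 fold change was 1.29 ± 0.38, 1.13 ± 0.35 and 2.40 ± 0.43 in FPC-GFP against CON-GFP, FPC-LIPA against FPC-GFP and FPC-LIPA against CON-GFP, called higher in all 3. Rasgrp1 had 0.460, 0.966 and 1.23 CPM in CON-GFP livers, 1.03, 1.99 and 2.38 CPM in FPC-GFP and 1.47, 3.67 and 6.60 CPM in FPC-LIPA livers. The liver of FPC-GFP 11, at 1.03 CPM, lay within the CON-GFP range, and FPC-LIPA livers were all above it. Its log2 fold change was 1.13 ± 0.29, 1.07 ± 0.33 and 2.17 ± 0.37 in the same comparisons, called higher in all 3. In FPC-GFP against CON-GFP the call of Batf was lost without CON-GFP 1 (1.23) or FPC-GFP 19 (1.14), and that of Rasgrp1 without CON-GFP 3 (0.99).

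The calls between the FPC-fed groups depended on which libraries were in the fit. The count of 3 members called there (Themis, Batf and Rasgrp1) became 0 without FPC-GFP 11, 12, 13, 16 or 20 or without FPC-LIPA 36 or 37, 1 without FPC-GFP 19 or FPC-LIPA 39, and 5 without FPC-LIPA 33. With those counts of 0, 4 or 5 members still had an unadjusted p under 0.05, and DESeq2 on all 12 livers called 4. Without mice 36, 37 and 39 together no member was called, with 4 at an unadjusted p under 0.05. Their log2 fold changes kept their sign under all these exclusions, with the lowest for Batf and Rasgrp1 (0.90 and 0.81) without FPC-LIPA 37 and for Themis (0.69) without mice 36, 37 and 39.

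**Figure D2:**
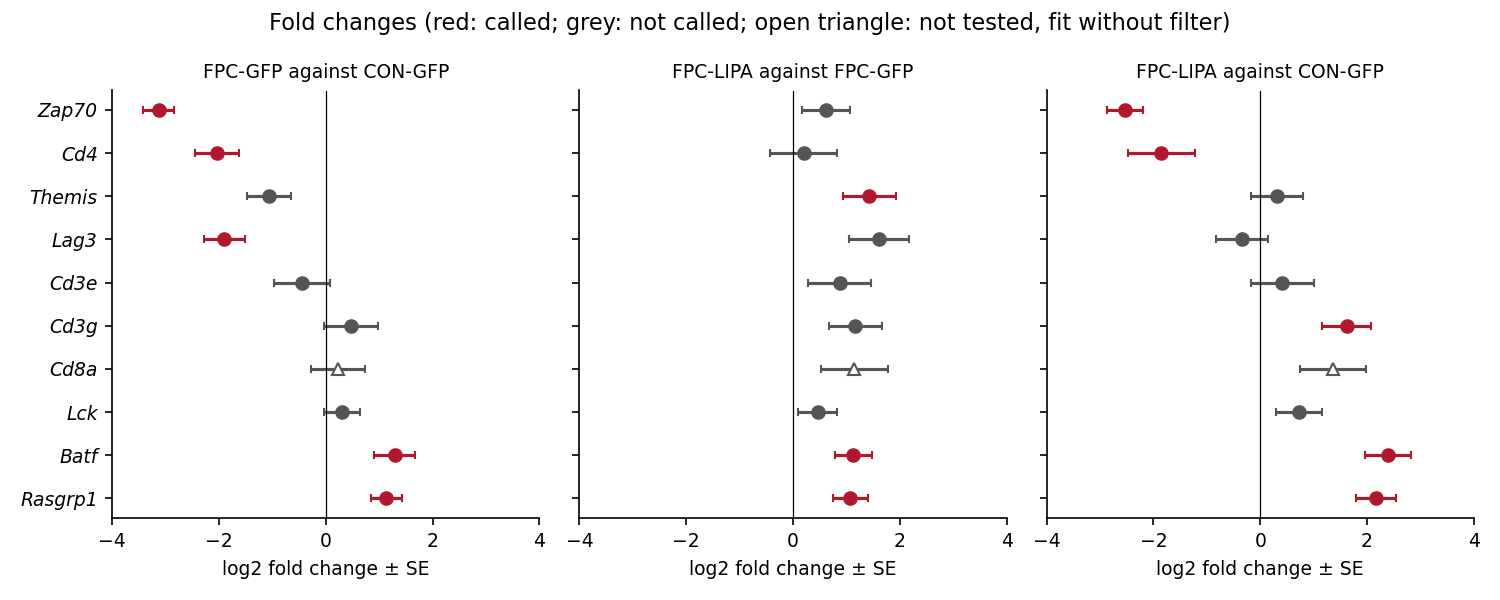
Log2 fold change ± SE (x axis) of the 10 genes (y axis) in the 3 comparisons; red points were called, grey points were not, and open triangles give Cd8a from the fit with no filter on low counts. Zap70, Cd4 and Lag3 are to the left in FPC-GFP against CON-GFP (-3.13, -2.04 and -1.90), where Batf and Rasgrp1 are to the right (1.29 and 1.13).

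The levels of the genes relative to each other were compared per kilobase of exon, since longer transcripts give more reads. In CON-GFP livers Zap70 had a mean of 4.81 CPM per kb, while Lck, the kinase that acts just before it, had 0.271, Cd3g 0.137, Cd3e 0.109 and Cd8a 0.0513 CPM per kb. Themis (1.04 CPM per kb) and Lag3 (1.03) were also above the CD3 genes, and Cd4 had 0.540. In FPC-GFP livers Zap70 had 0.549 CPM per kb, Lck 0.323, Cd3g 0.197 and Cd3e 0.0809, and Themis (0.497), Lag3 (0.272) and Cd4 (0.131) were nearer to them. In FPC-LIPA livers Themis (1.27), Batf (1.16), Zap70 (0.812) and Lag3 (0.798) led, and Lck (0.430), Cd3g (0.424), Cd3e (0.147), Cd4 (0.143) and Cd8a (0.134 CPM per kb) followed. These sums of exons stand for transcript lengths that were not measured.

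Whether Zap70, Cd4, Themis and Lag3 followed the other T cell genes was described in each liver by their log2 CPM minus the mean log2 CPM of Cd3e, Cd3g, Cd8a and Lck. For Zap70 this log2 ratio was 5.01 ± 0.48 (SD, n = 6) in CON-GFP, 1.63 ± 0.53 in FPC-GFP and 1.47 ± 0.76 in FPC-LIPA livers. The lowest CON-GFP liver (4.34) was above the highest FPC-fed liver (2.82), so Zap70 did not keep a fixed ratio to the 4 genes. For Lag3 the log2 ratio was 2.22 ± 0.92, 0.24 ± 0.39 and 0.83 ± 1.27 in the same order, with CON-GFP and FPC-GFP apart (lowest 1.27, highest 0.73). For Cd4 it was 2.15 ± 1.20, 0.18 ± 0.38 and -0.71 ± 1.51, and CON-GFP and FPC-GFP overlapped (lowest 0.50, highest 0.77). The lowest FPC-LIPA value of Cd4, -3.40, is that of mouse 36 with 0 counts and depends on the prior count of 2. For Themis it was 4.56 ± 0.75, 3.39 ± 0.97 and 3.94 ± 1.24, and all groups overlapped. Batf (-0.36 ± 0.32, 0.72 ± 0.71 and 1.05 ± 0.98) and Rasgrp1 (0.98 ± 0.26, 1.95 ± 0.40 and 2.19 ± 1.04) had higher means on the FPC diet than on the control diet. The values are a description, since the same livers had shown the fold changes by which the genes were proposed. Counts behind the 4 genes are low, so that part of the spread is counting error. The 4 genes also followed each other only in part. Over the 18 livers, r of log2 CPM between pairs of them ran from 0.153 to 0.687.

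**Figure D3:**
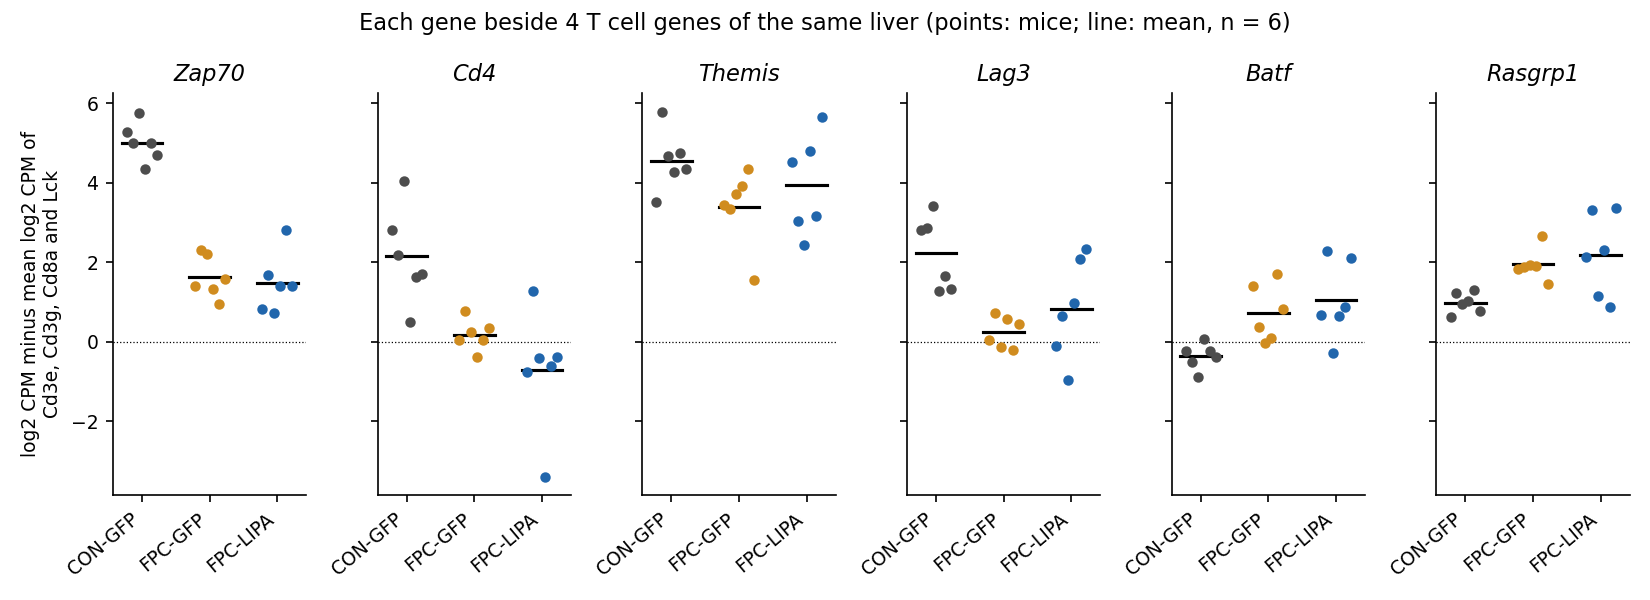
Log2 CPM of 6 genes minus the mean log2 CPM of Cd3e, Cd3g, Cd8a and Lck of the same liver (y axis) by group (x axis); points are mice, lines are means of 6 mice, and the dotted line marks equal levels. Zap70 goes from 5.01 in CON-GFP to 1.63 in FPC-GFP and 1.47 in FPC-LIPA livers.

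Over all 18 livers, Zap70, Cd4 and Lag3 had higher correlations with each other than with Cd3e or Cd3g, but not within FPC-LIPA livers. Over the 18 livers Pearson's r of log2 CPM was 0.709 (Spearman's rho 0.810) between Zap70 and Cd4, 0.722 (0.723) between Zap70 and Lag3 and 0.410 (0.428) between Cd4 and Lag3. These livers fall into 3 groups, and differences between the groups enter r, so values within each group are given too. Within CON-GFP livers r was 0.713, 0.478 and 0.710 for the same pairs, within FPC-GFP livers 0.907, 0.778 and 0.801, and within FPC-LIPA livers 0.111, 0.630 and -0.197 (n = 6 each). With Cd3g, r of Zap70, Cd4 and Lag3 was -0.205, -0.433 and 0.230 over the 18 livers, -0.0442, -0.338 and -0.551 within CON-GFP, 0.484, 0.578 and 0.698 within FPC-GFP and 0.638, -0.515 and 0.848 within FPC-LIPA livers. With Cd3e it was 0.138, -0.0976 and 0.194 over the 18 livers, -0.501, -0.954 and -0.766 within CON-GFP, 0.431, 0.490 and 0.475 within FPC-GFP and 0.258, 0.0544 and 0.278 within FPC-LIPA livers. Within FPC-LIPA livers Lag3 was thus closer to Cd3g than to Zap70 or Cd4. Against the mean of Cd3e, Cd3g, Cd8a and Lck, r over the 18 livers was -0.113 for Zap70, -0.258 for Cd4, 0.281 for Themis and 0.0987 for Lag3. Within FPC-GFP livers Zap70, Cd4 and Lag3 did vary with that mean (r = 0.814, 0.800 and 0.946), and within CON-GFP livers they varied against it (-0.563, -0.901 and -0.632). Themis had its highest r among the members with Cd3e (0.536). Batf and Rasgrp1 went together with r of 0.870 over all livers, but -0.00531 within FPC-GFP livers. Cd8a and Lck had r of 0.687 over all and 0.901 within FPC-LIPA livers, where mouse 34 was the highest in both. The other pairs among Cd3e, Cd3g, Cd8a and Lck were lower over the 18 livers. Their r ran from 0.153 (Cd3g and Lck) to 0.481 (Cd3e and Cd8a), with 0.266 between Cd3e and Cd3g. The mean of these genes is thus not a single shared pattern. Libraries share their depth and scaling, and low counts blur all of these values.

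**Figure D4:**
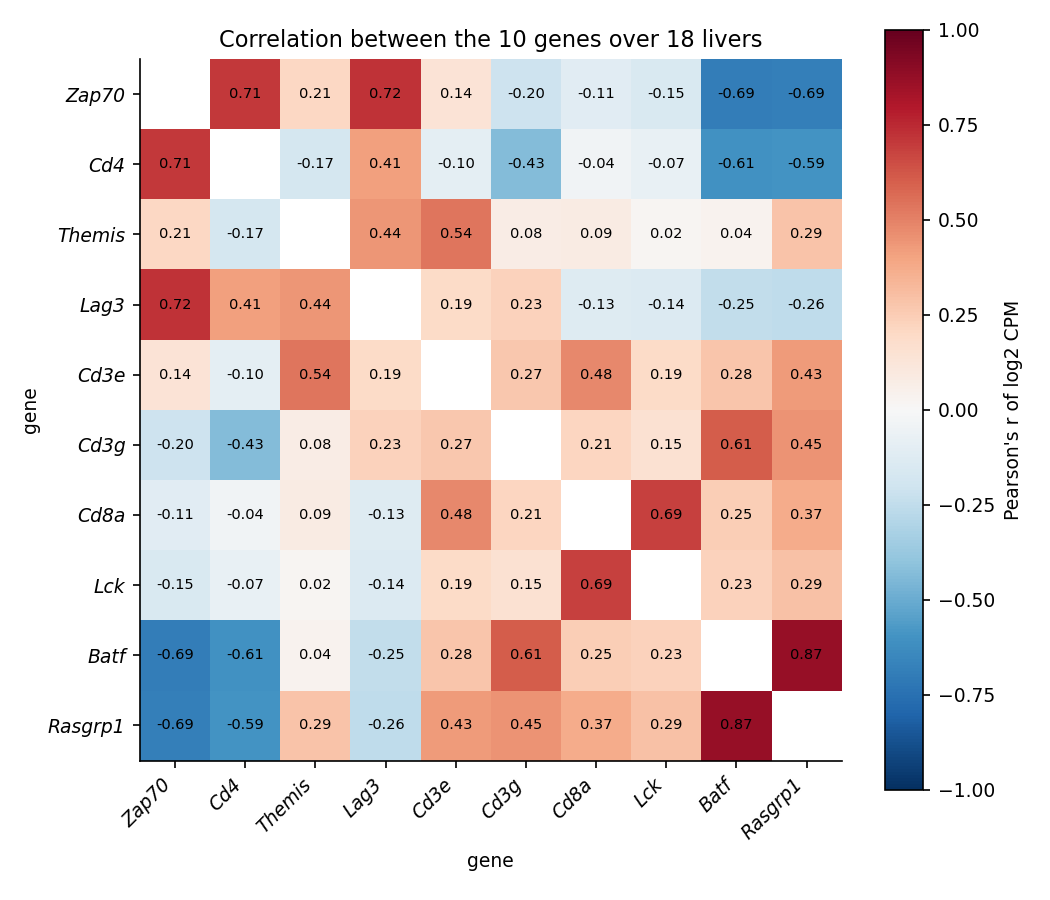
Pearson's r of log2 CPM between the 10 genes (both axes) over the 18 livers, from blue (-1) through white to red (1). Zap70, Cd4 and Lag3 form a red block (0.41 to 0.72), and Batf and Rasgrp1 are positive with each other (0.87) and negative with Zap70 (-0.69 both).

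The genes whose pattern was most like that of each member were sought among 14962 genes by r over the 18 livers. For Zap70 they were Akr1d1 (r = 0.936), a bile acid synthesis enzyme, Gm30262 (0.935), Gnmt (0.934), a methyltransferase of glycine, Nnmt (0.926), a methyltransferase of nicotinamide, and Nat8 (0.921), an acetyltransferase. Akr1d1 had a mean of 207 CPM in CON-GFP livers, 53.4 in FPC-GFP and 74.0 in FPC-LIPA livers. Within the groups, its r with Zap70 was 0.0141 in CON-GFP, 0.940 in FPC-GFP and 0.705 in FPC-LIPA livers. Within CON-GFP livers r with Zap70 was 0.388 for Gm30262, -0.277 for Gnmt, 0.456 for Nnmt and 0.25 for Nat8. For the same genes it ran from 0.722 to 0.929 within FPC-GFP and from 0.594 to 0.856 within FPC-LIPA livers. The differences between the groups enter r over the 18 livers here too. Within CON-GFP livers, where r was low, Zap70 itself varied little (14.4 ± 0.774 CPM, SD). By rank of likeness to Zap70 among the 14962 genes, Lag3 was at 291, Cd4 at 333, Themis at 4269, Cd3e at 5365, Lck at 10068 and Cd3g at 10635. For Cd4 the top genes were Sult5a1 (0.908), Map3k13 (0.879), Bhmt2 (0.867), Cyp4f17 (0.865) and Odf3b (0.858), and for Lag3 Sult1b1 (0.924), D130020L05Rik (0.904), Gm11844 (0.900), Car8 (0.898) and C8g (0.898). Sult5a1 and Sult1b1 are sulfotransferases, Bhmt2 a methyltransferase of homocysteine and C8g a complement chain. For Themis the top genes were Rpl23a (0.874), a ribosomal protein gene, Ubxn8 (0.873), Lrriq3 (0.861), Tbc1d32 (0.851) and Gm40923 (0.848). For the mean of Cd3e, Cd3g, Cd8a and Lck they were Ms4a4b (0.805) and Xcl1 (0.739), which T and natural killer cells express, Mmp9 (0.757), Gm7609 (0.751) and Fcrla (0.728), a B cell gene. None of these 5 was among the top 5 of Zap70, Cd4, Themis or Lag3.

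Other genes of T cells were counted in 3 lists without the members, chosen with earlier results of these data known. On the diet (FPC-GFP against CON-GFP) 44 of the 79 genes were tested, and 5 were called higher and 1 lower (13.6%, against 7.2% of all genes), with a median log2 fold change of 0.30 against 0.0121 over all genes. Of the 41 genes of the receptor and its signalling 25 were tested, and the adaptors Lcp2 (1.19 ± 0.17) and Fyb (1.21 ± 0.23) rose. Of the 15 costimulation and checkpoint genes 5 were tested, and the costimulator Icos (1.16 ± 0.23) and the receptor Slamf6 (1.25 ± 0.37) rose. Of the 23 transcription and homing genes 14 were tested, and the cytokine receptor chain Il2rg rose (1.03 ± 0.27). The receptor chains Trbc1 (-0.46 ± 0.44), Trbc2 (0.14 ± 0.35) and Trac (0.94 ± 0.41) were not called. None of the 44 tested genes fell as far as Zap70, Cd4 or Lag3. The members were chosen by their fold changes in these livers, so nothing is read from that contrast. The most abundant list genes, Csk (0.20 ± 0.10), Plcg1 (-0.02 ± 0.14), S1pr1 (-0.06 ± 0.14) and Btla among the checkpoint genes (0.08 ± 0.41), were not called. Leaving out FPC-GFP 19 left 3 calls in all. The call of Slamf6 was lost without CON-GFP 1, CON-GFP 7 or FPC-GFP 19 (1.12, 1.12 and 1.00) and that of Il2rg without CON-GFP 1 or 6 or FPC-GFP 16 or 19 (0.86 to 0.97).

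In FPC-LIPA against FPC-GFP, 51 genes of the 3 lists were tested and 11 were called higher and none lower (21.6%, against 11.4% of all genes), with a median log2 fold change of 0.34 against 0.041 over all genes. The receptor genes Cd3d (2.81 ± 0.67), Trbc1 (2.04 ± 0.47) and Trbc2 (1.59 ± 0.40) rose, as did Cd226 (2.68 ± 0.57), a receptor of T and natural killer cells. Ptprc, the leukocyte phosphatase CD45 (1.67 ± 0.38), Cd2 (1.53 ± 0.44) and Lcp2 (1.18 ± 0.32) also rose. The homing receptors Cxcr6 (1.47 ± 0.45) and Ccr7 (1.41 ± 0.45) and the activation marker Cd69 (1.37 ± 0.47) were also called. Zap70, at 0.62 ± 0.45, and Cd4, at 0.20 ± 0.63, were not among the called genes. Without mice 36, 37 and 39 only 2 of the list genes were called, and Cd3d was at 0.98, Trbc1 at 1.43 and Trbc2 at 1.07, none called. In that fit, which had fewer livers, 22 list genes had an unadjusted p under 0.05 in edgeR, and 20 had one with all 12 livers. With a library left out the count was lowest, from 5 to 7, without FPC-LIPA 36 and without FPC-GFP 11, 12, 13, 16 and 20. Cd69, Cxcr6, Ccr7 and Cd2 lost their calls without 10, 8, 7 and 5 of the 12 libraries, Lcp2 without 3, and Cd3d, Cd226, Trbc1, Trbc2 and Ptprc without none. Trbc1 and Trbc2 have 0.749 and 0.692 kb of exon, in the length class where 28.2% of all genes were called higher.

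In FPC-LIPA against CON-GFP, 15 of 50 tested list genes were called higher and 1 lower (32.0%, against 15.1%), with a median log2 fold change of 0.74 against 0.038 over all genes. Cd3d (2.48 ± 0.72), Cd226 (2.42 ± 0.57), Lcp2 (2.34 ± 0.31), Slamf6 (2.24 ± 0.40) and Ptprc (2.13 ± 0.39) had large values. The gene called lower was Dgka, a lipid kinase that limits RASGRP1 signalling (-1.07 ± 0.24). Zap70 and Cd4 were called lower in this comparison, in which 15 of the 16 called list genes were higher. Zap70 and Cd4 were chosen with these results known, so nothing is read from that contrast either. The call of Cd3d was lost without CON-GFP 1 (2.45), CON-GFP 3 (2.27), FPC-LIPA 37 (2.12) or FPC-LIPA 39 (2.06), and that of Dgka without CON-GFP 3 (-0.98) or FPC-LIPA 36 (-0.96).

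**Figure D5:**
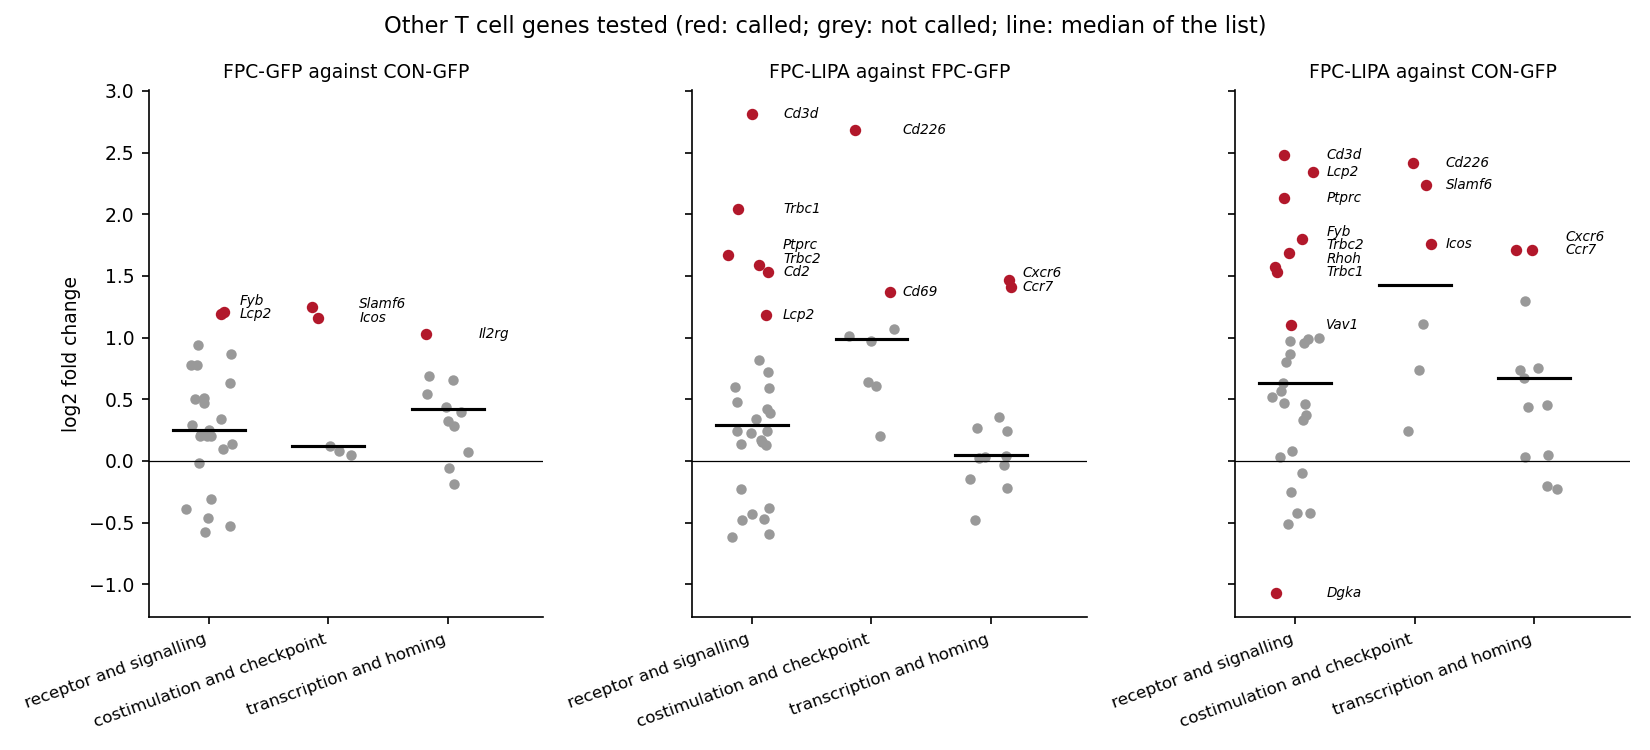
Log2 fold change (y axis) of the tested genes of 3 T cell lists without the 10 members (x axis) in the 3 comparisons; red points with names were called, grey points were not, and lines are the medians of the whole lists. A few list genes that are not reported here are not drawn; the called genes that are drawn lie above 0 apart from Dgka in FPC-LIPA against CON-GFP (-1.07).

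Several paralogs of the members serve myeloid and B cells. Syk, the kinase related to Zap70 that B cells and myeloid cells use, had 3.85 ± 1.04 CPM (SD) in CON-GFP, 7.87 ± 2.16 in FPC-GFP and 11.8 ± 7.45 in FPC-LIPA livers, and its log2 fold change of 1.02 ± 0.21 on the diet was called. Themis2, the paralog of Themis in B cells and macrophages, rose by 1.07 ± 0.22, and the myeloid kinase Fgr (1.48 ± 0.29), related to Lck, rose too. Other relatives of Lck were not called on the diet, with Lyn at 0.25 ± 0.09 and Yes1 at -0.39 ± 0.20. Of Rasgrp1, the relatives Rasgrp2 (-0.71 ± 0.14, under the fold minimum) and Rasgrp3 (0.24 ± 0.18) were not called, and of Batf, Batf3 was at 0.84 ± 0.28. Between the FPC-fed groups Yes1 (1.21 ± 0.39) and Batf3 (1.05 ± 0.31) rose.

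No ligand of the coreceptors or of LAG3 among the 10 examined was called lower in any comparison. MHC class II, which both CD4 and LAG3 bind, rose at H2-Ab1 on the diet (1.01 ± 0.28), while H2-Aa (0.94 ± 0.26) and H2-Eb1 (0.90 ± 0.26) were just under the fold minimum. In FPC-LIPA against CON-GFP all 3 rose (1.68 ± 0.30, 1.61 ± 0.26 and 1.78 ± 0.24). The class I genes H2-K1 (0.05 ± 0.16), H2-D1 (0.04 ± 0.16) and B2m (-0.15 ± 0.11) were not called on the diet. In FPC-LIPA against FPC-GFP, H2-K1 was at -0.73 ± 0.25 (edgeR adjusted p = 0.047), under the fold minimum. H2-D1 (-0.33 ± 0.20) and B2m (-0.31 ± 0.22) were not called there. B2m had at most 1554 CPM in FPC-LIPA livers and at least 1560 CPM in CON-GFP livers, a lack of overlap found for 5.56% of tested genes. Of the other LAG3 ligands Lgals3 rose (1.71 ± 0.22 on the diet, and 1.14 ± 0.18 in FPC-LIPA against FPC-GFP), whereas Fgl1, which hepatocytes secrete, had 266 ± 99.6 CPM in CON-GFP livers and 178 ± 82.3 CPM in FPC-GFP livers (-0.58 ± 0.30, not called). Clec4g, a lectin of liver endothelium (0.20 ± 0.16), and Il16, a CD4 ligand (0.59 ± 0.21), were not called on the diet.

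Markers of other cells that can hold these transcripts were given by their summed level. The 9 natural killer cell genes summed to 2.14 to 5.15 CPM in CON-GFP livers, 2.05 to 5.16 CPM in FPC-GFP and 5.05 to 20.7 CPM in FPC-LIPA livers. On the diet, where Zap70 and Lag3 fell, the 2 that were tested, Klrk1 (0.27 ± 0.30) and Nkg7 (0.59 ± 0.51), were not called. The others did not pass the filter on low counts there. Without the filter they went both ways, with log2 fold changes from -0.49 ± 0.54 to 1.28 ± 0.58, none called. Between the FPC-fed groups 3 of 5 tested natural killer cell genes rose. The 8 plasmacytoid dendritic cell genes summed to 167 to 218 CPM in CON-GFP livers and 235 to 383 CPM in FPC-GFP livers, but most of that sum was Bst2 (means of 176 and 232 CPM) and Ly6d (4.41 and 63.8 CPM), the 1 gene of 4 tested that was called, higher. Siglech, a more specific marker of these cells, had means of 0.473 CPM in CON-GFP livers and 0.218 CPM in FPC-GFP livers and did not pass the filter on low counts in that comparison. Without the filter its log2 fold change on the diet was -1.05 ± 0.43. Its mean in FPC-LIPA livers was 1.16 CPM, and it was called higher there than in FPC-GFP livers (log2 fold change 2.42 ± 0.56, edgeR adjusted p = 0.0163). The 6 conventional dendritic cell genes summed to 8.94 to 15.2 CPM and 8.90 to 15.3 CPM in the same groups, with 1 of 5 called, higher. The 7 Kupffer cell genes summed to 115 to 236 CPM in CON-GFP livers, 310 to 544 CPM in FPC-GFP and 412 to 851 CPM in FPC-LIPA livers, with 6 of 7 called higher on the diet. For 7 monocyte and macrophage genes the count was 4 of 7. The tested B cell genes ran from -0.36 ± 0.23 (Ighm) to 0.76 ± 0.41 (Cd22) on the diet and the neutrophil genes from -0.28 ± 0.53 (S100a8) to 0.73 ± 0.27 (Csf3r), not called. Of the thymocyte genes, which would accompany Themis in immature T cells, Rag2 was at 0 counts in all livers, and Rag1 and Ptcra had group means of at most 0.0102 and 0.0317 CPM. Dntt, the 4th of that list, had 1.63, 3.89 and 5.11 CPM in the 3 groups and rose on the diet (1.28 ± 0.40). Of 6 hepatocyte genes 1 fell on the diet, Serpina1c (-1.07 ± 0.20), and Alb was at -0.15 ± 0.15. The part of these cells in the members' levels was not tested.

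Reads from neighbouring genes could add to a member's count, so genes within 10 kb were examined. Gpr162 begins 708 bases beyond the 3′ end of Cd4 on the same strand (minus), at chr6:124858444-124863983 (GRCm38, GENCODE M21). The level of Gpr162 went the same way as Cd4, from 0.627 ± 0.409 CPM in CON-GFP livers to 0.258 ± 0.104 in FPC-GFP and 0.126 ± 0.147 in FPC-LIPA livers. Its log2 fold change on the diet was -1.26 ± 0.45, not called, and its part in the Cd4 count was not tested. Ptms, 1975 bases from Lag3 on the same strand, was far more abundant (413 ± 114 CPM in CON-GFP livers) and was at -0.17 ± 0.16 on the diet, where Lag3 fell. Tmem131 lies 9372 bases from Zap70 (chr1:36761798-36782818) on the other strand and was at 0.12 ± 0.14. The genes annotated inside Zap70 (Gm18828), Themis (Gm47834 and 4930519F09Rik), Cd3e (Gm48719 and Gm48720) and Lck (Mir8119) had 0 counts in all 18 livers. Whether the counting used strand is not given in the sources used here.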

How the data were processed

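Liver RNA of 18 mice was sequenced, and the authors trimmed the reads, mapped them with HISAT2 2.1.0 to mm10 (GRCm38) and counted them per gene with featureCounts of Subread. The deposited values are raw counts with no normalization. Strand setting, annotation and the handling of reads with several positions are not given in the sources used here, and a stranded and an unstranded kit are both named. Of 23 columns, 18 were matched to the 3 groups and 5 for other vectors were not used. The 10 genes and all gene lists were chosen with earlier results of these data known.

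Genes were kept with filterByExpr, scaled by TMM and tested over the whole table with edgeR 4.0.16 in R 4.3.3 (quasi-likelihood test, Benjamini-Hochberg adjustment), each pair of groups fitted alone. The p-values measure the spread between mice. SE was the log2 fold change divided by the square root of F. CPM used TMM over 18 libraries, and log2 CPM a prior count of 2. The scripts were tested on simulated data. Named were the members, list genes called or most abundant (at most 10 per comparison), paralogs and ligands of at least 1 CPM, the 5 genes most like each of 4 members and the mean of 4 others, and neighbours within 10 kb. Cell type lists were summed, and the single genes named from them, and Trac, were named after their values were seen. Exon lengths came from GENCODE M21. Alternatives were other scalings, filters, DESeq2 1.42.0, 1 fit of all libraries, libraries with sample numbers 55 to 68 and each library left out. Some genes of the lists enter the counts and medians but are not reported here by name.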

Additional observations from a re-analysis of the deposited data

Results flagged for a closer look

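In each group of 6 livers the highest and lowest value of every member was compared with its nearest neighbour, and 4 of 30 such groups held a liver that stood apart by Dixon's 95% criterion, where chance gives about 1 in 20. Zap70 was at 12.8 CPM in the liver of CON-GFP 6, with the next CON-GFP liver at 14.5 CPM. Zap70 was at 5.83 CPM in FPC-LIPA 39, with the next at 2.69 CPM. Themis was at 26.1 CPM in CON-GFP 2, with the next at 12.1 CPM. Cd8a was at 1.63 CPM in FPC-LIPA 34, with the next at 0.383 CPM.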

How the results depend on the processing

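No log2 fold change of a called member or called gene of the 3 T cell lists turned its sign under any alternative. Paralogs, ligands and cell type markers were not followed through the alternatives. Zap70 and Lag3 were called lower in FPC-GFP against CON-GFP in all 20 alternatives, and Cd4 in all 19 in which it was tested. Zap70, Batf and Rasgrp1 were called in FPC-LIPA against CON-GFP in all 21, and Cd4 there in 10 of 21. In FPC-LIPA against FPC-GFP, Themis was called in 7, Batf in 8 and Rasgrp1 in 9 of 21. In FPC-GFP against CON-GFP the 5 members called became 3 with at least 1 CPM in 6 libraries, where fewer genes were tested, and 4 to 6 with a library left out; the 6 T cell list genes became 12 with no fold minimum, 3 with sample numbers 55 to 68, and 3 to 6 with a library left out. In FPC-LIPA against FPC-GFP the 3 members became 0 with library size alone, with no filter and with sample numbers 55 to 68. They also became 0 without FPC-LIPA 36, 37 and 39, an exclusion chosen after seeing the data. In these settings 4 or 5 members had an unadjusted p under 0.05 in edgeR. DESeq2, a separate alternative with all libraries of both groups, called 4 members. With a library left out the count was 0 to 5. The 11 list genes became 5 with library size alone, 6 with no filter and 6 with at least 1 CPM in 6 libraries. They became 1 with sample numbers 55 to 68, 2 without FPC-LIPA 36, 37 and 39, and 5 to 15 with a library left out. In FPC-LIPA against CON-GFP the 5 members became 3 with sample numbers 55 to 68 and 3 to 5 with a library left out (3 without FPC-LIPA 39), and the 16 list genes became 9 with at least 1 CPM in 6 libraries and 12 to 17 with a library left out. Removing the trend with gene length, also chosen after seeing the data, left 5, 2 and 5 members and 6, 10 and 16 list genes called. In FPC-LIPA against FPC-GFP, 20 list genes had an unadjusted p under 0.05 in the main edgeR fit. That number was 16 with library size alone, 21 with no filter and 13 with at least 1 CPM in 6 libraries. It was 15 with sample numbers 55 to 68 and 22 without FPC-LIPA 36, 37 and 39. The cause of the changes in the calls was not tested. Cd3e, Cd3g, Cd8a and Lck lay near 1 CPM or below, which limits what their fold changes can show. No paired analysis was possible because the groups share no mouse numbers.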
